A study of Rattus norvegicus with 26 samples.

Results

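Immediate early genes are transcribed within minutes of neuronal firing, before any new protein is made, when calcium entry through NMDA receptors and voltage-gated channels reaches CREB, MEF2 and the SRF-ELK complex that already sit at their promoters. In the dentate gyrus (DG), where granule cells fire sparsely, their transcripts mark the few cells that were recently active, and the products either regulate later genes (the FOS and JUN proteins that form AP-1, the EGR zinc finger factors, NPAS4, NR4A1) or act at synapses (ARC). The genes described here are 10 members of this class, Npas4, Fos, Fosb, Junb, Egr1, Egr2, Egr3, Egr4, Arc and Nr4a1. They were taken by name from the 17910 genes of a table of normalized read counts, and all 10 passed the filter of a mean normalized count of at least 5 that left 15595 genes for testing.

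RNA was sequenced from the DG of 1 hemisphere of 26 male F344 rats whose treatment began at 6 months of age. The Veh group (n = 10) received vehicle, the Dox group (n = 8) received the anthracycline doxorubicin, a chemotherapy drug that breaks DNA, in 4 weekly injections of 2 mg/kg, and the Dox + ABT group (n = 8) received the same doxorubicin and, by gavage in 5-day courses every other week, the BCL-2 family inhibitor ABT-263 at 12 mg/kg, a senolytic compound that kills senescent cells. The Veh rats were also part of another study, of senolytic treatment in brain aging. Behaviour tests, among them a water maze and inhibitory avoidance, came before tissue harvest. The interval between the last handling of each rat and its death is not given in the sources used here. Its part in the levels of transcripts this short-lived was not tested. No group received ABT-263 without doxorubicin.

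The libraries held an estimated 10166000 to 24327000 reads each. The leading principal component of the deviations from group means carried 28.4% of their variance. Libraries were scored on it with group means left in, so differences between groups enter the scores. The widest gap in the scores split the libraries into 2 kinds. The first kind of 16 libraries, from 4 Veh, 5 Dox and 7 Dox + ABT rats, had scores from -37.95 to -0.82. Ribosomal protein genes took 1.04% ± 0.152 (SD) of its counts. The second kind of 10 libraries, from 6 Veh, 3 Dox and 1 Dox + ABT rats, had scores from 21.01 to 38.25. There ribosomal protein genes took 1.716% ± 0.237. Veh rats 5 and 6 had the highest scores of the first kind, at -4.41 and -0.82. The kinds were unevenly spread over the groups, so values of the 10 genes within each kind are given beside the pooled ones; within the second kind this is possible for Dox against Veh alone. Dox rats 1 and 2 stood apart from the other 6 Dox rats in stress and glucocorticoid target genes, with 510.4 and 530.3 normalized counts of Cdkn1a, a cell cycle inhibitor, against at most 109, and 1492 and 1643 of the metallothionein gene Mt1 against at most 225.3. Dox rats 5 and 7 stood apart in red blood cell RNA, with 31920 and 42090 normalized counts of the globin gene Hba-a2 against at most 7476 in the other Dox rats. Their part in the results below was not tested as a cause, and the tests were repeated without either pair.

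Promoter sequences from RefSeq (build GRCr8) were matched by symbol for 7 of the 10 genes. The 250 bases upstream of the annotated start are shown for the gene that differed most between groups, Npas4, and for 4 others, Egr2, Egr4, Junb and Nr4a1. Pairs of these 4 passed the correlation threshold used below, except Egr2 with Egr4 (r = 0.345, adjusted permutation p = 0.15). The Egr1 and Fosb windows are not shown. Capitals mark the CArG box, which binds SRF, the short CRE motif TGACG, which binds CREB, and the EGR motif GCGNGGGCG, each searched on both strands, so that TGACG also appears as CGTCA. The windows lie at chr1:211716103-211716352 (minus strand), chr20:21054442-21054691 (minus strand), chr4:119607818-119608067 (minus strand), chr19:40080876-40081125 (plus strand) and chr7:134259888-134260137 (plus strand).
Npas4: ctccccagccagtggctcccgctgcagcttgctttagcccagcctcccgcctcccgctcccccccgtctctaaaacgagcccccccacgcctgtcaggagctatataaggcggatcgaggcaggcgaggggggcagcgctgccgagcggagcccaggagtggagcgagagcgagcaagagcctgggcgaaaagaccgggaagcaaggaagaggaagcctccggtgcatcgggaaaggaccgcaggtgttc
Egr2: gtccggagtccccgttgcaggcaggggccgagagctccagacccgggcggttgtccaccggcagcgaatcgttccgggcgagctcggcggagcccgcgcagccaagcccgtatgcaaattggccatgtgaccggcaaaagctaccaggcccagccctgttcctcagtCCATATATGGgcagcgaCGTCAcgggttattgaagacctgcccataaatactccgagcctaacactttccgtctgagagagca
Egr4: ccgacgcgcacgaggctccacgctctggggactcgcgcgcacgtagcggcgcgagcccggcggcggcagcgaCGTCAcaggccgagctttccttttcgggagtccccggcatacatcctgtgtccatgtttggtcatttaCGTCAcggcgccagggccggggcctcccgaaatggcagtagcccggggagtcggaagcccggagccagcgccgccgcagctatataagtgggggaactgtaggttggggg
Junb: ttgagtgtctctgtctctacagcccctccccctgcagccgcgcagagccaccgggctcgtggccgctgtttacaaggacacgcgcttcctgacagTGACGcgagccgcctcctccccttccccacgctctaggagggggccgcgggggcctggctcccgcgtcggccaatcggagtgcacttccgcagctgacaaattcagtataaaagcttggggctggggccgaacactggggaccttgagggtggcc
Nr4a1: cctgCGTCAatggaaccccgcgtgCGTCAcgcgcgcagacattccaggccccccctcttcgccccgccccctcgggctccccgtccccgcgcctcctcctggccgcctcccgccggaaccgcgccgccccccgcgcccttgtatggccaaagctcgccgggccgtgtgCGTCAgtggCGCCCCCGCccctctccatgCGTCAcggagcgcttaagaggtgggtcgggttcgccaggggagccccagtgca

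The short CRE motif stood in 5 of the 7 windows (Egr1, Egr2, Egr4, Junb and Nr4a1), against 18.2% of 33465 promoter windows of the same length, with 4 copies in the Nr4a1 window. The CArG box stood in the windows of Egr1 and Egr2, against 1.5% of all promoters, and the Egr2 copy lay just upstream of its CRE motif. The EGR motif stood in the Nr4a1 window alone, against 4.29% of all promoters. None of the 7 windows held the full palindrome TGACGTCA, which overlaps the short motif and was present in 1.59% of all promoters, the AP-1 motif TGANTCA (6.34%) or AAAGGTCA, the motif of NR4A1 itself (1.24%). The Npas4 and Fosb windows held none of the motifs searched, which says only that these letters are not in these bases.

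Relative to Veh, all 10 genes had a lower mean log2 level in the Dox group, and 2 of them, Npas4 and Arc, passed the threshold of p under 0.01 (limma on log2(normalized count + 1), the scale of all differences given here). Both fell. Of all 15595 genes tested, 2.87% passed this threshold and 1.85% passed it with a lower level. Neither gene passed adjustment over all genes (Benjamini-Hochberg adjusted p = 0.157 for Npas4 and 0.335 for Arc). The median difference of the 10 genes was -0.277, against 0.005 over all genes tested. The 10 values come from the same rats and the genes varied together between rats, so the common direction does not count as 10 separate observations.

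Npas4 encodes a neuronal bHLH-PAS factor that responds selectively to calcium entry and controls inhibitory and excitatory inputs of the cells that express it. Its normalized count ran from 24.7 through a median of 32.6 to 58.4 in the 10 Veh rats. In the 8 Dox rats it ran from 9.10 through a median of 10.6 to 37.1, and in the 8 Dox + ABT rats from 17.4 through 29.1 to 79.4. The Dox rats fell into 2 sets: 6 rats lay between 9.10 and 12.3, below every Veh and every Dox + ABT rat, while Dox rats 9 and 10, at 37.1 and 35.0, lay inside the Veh range. The mean was 16.8 ± 11.9 (SD, n = 8) in Dox against 34.1 ± 9.35 (n = 10) in Veh, a log2 difference of -1.16 ± 0.31 (SE, limma p = 0.000828, adjusted p = 0.157; exact permutation test of the group labels, two-sided, p = 0.00139).

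The mean Npas4 count of Dox + ABT was 40.5 ± 25.8 (SD, n = 8). Against it, Dox differed by -1.20 ± 0.33 (SE, limma p = 0.000991, adjusted p = 0.161). The exact permutation test, which shuffles the labels of these 2 groups only, gave p = 0.0148 for it and so missed the threshold. Dox + ABT and Veh did not differ beyond their spread (0.04, 95% interval -0.60 to 0.68, limma p = 0.897). The Dox + ABT rats were widely spread, with rats 1, 2 and 11 between 53.1 and 79.4 and the other 5 between 17.4 and 32.5, and the SD of log2 Npas4 was 0.88 in Dox + ABT and 0.80 in Dox but 0.33 in Veh.

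The low Npas4 level was present in both kinds of library. In the second kind, the 3 Dox rats (9.10 to 12.3) lay below the 6 Veh rats (26.3 to 35.7), with a difference of -1.47 (limma p = 4.8e-05). In the first kind, which holds Dox rats 9 and 10, the difference from Veh was -1.06 (p = 0.0399) and that from Dox + ABT -1.10 (p = 0.0172). Without Dox rats 1 and 2 it was -1.0 relative to Veh (p = 0.00677), and without Dox rats 5 and 7 -1.06 (p = 0.00481). Npas4 was a rare transcript: its values stood for an estimated 8 to 75 reads a library, and the lowest of these counts has an exact 95% Poisson interval of 3.45 to 15.8 reads, which covers counting error only.

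Arc, whose product moves in dendrites and removes AMPA receptors from synapses, ran from 731 through a median of 1464 to 2246 normalized counts in Veh. In Dox it ran from 345 through 924 to 1948, and in Dox + ABT from 723 through 1242 to 2293. Dox rats 1 and 2, at 345 and 373, were the only Dox rats below every Veh rat, and 7 of the 8 Dox rats lay below the Veh median, with Dox rat 10 at 1948 the exception. The mean was 934 ± 502 (SD, n = 8) in Dox and 1462 ± 483 (n = 10) in Veh. The log2 difference was -0.76 ± 0.27 (SE, limma p = 0.00883, adjusted p = 0.335).

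The Arc call was lost without the 2 Dox rats with high Cdkn1a and Mt1, where the difference was -0.37 (p = 0.131), and the exact permutation test on all rats gave p = 0.0261. The call was also lost without any single one of Veh rats 1, 3, 4, 6, 11 and 12, Dox rats 1, 2, 13 and 14 and Dox + ABT rats 1, 11 and 12 (p from 0.0101 to 0.0313). Within the second kind of library, which does not hold Dox rats 1 and 2, the difference was -0.52 (p = 0.0252), and within the first kind -0.85 (p = 0.0564). Arc in Dox + ABT averaged 1304 ± 498 (SD, n = 8), and the difference of Dox from it, -0.59, missed the threshold. Leaving out Dox rat 10 made it -0.77 (limma p = 0.00867), past the threshold. The limma p on all rats was 0.0494 for it and 0.521 for Dox + ABT against Veh (-0.18). The deposited table counts Arc on 2 transcript rows, and both were lower in Dox than in Veh (-0.78, p = 0.0202, and -0.85, p = 0.00997).

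**Figure D1:**
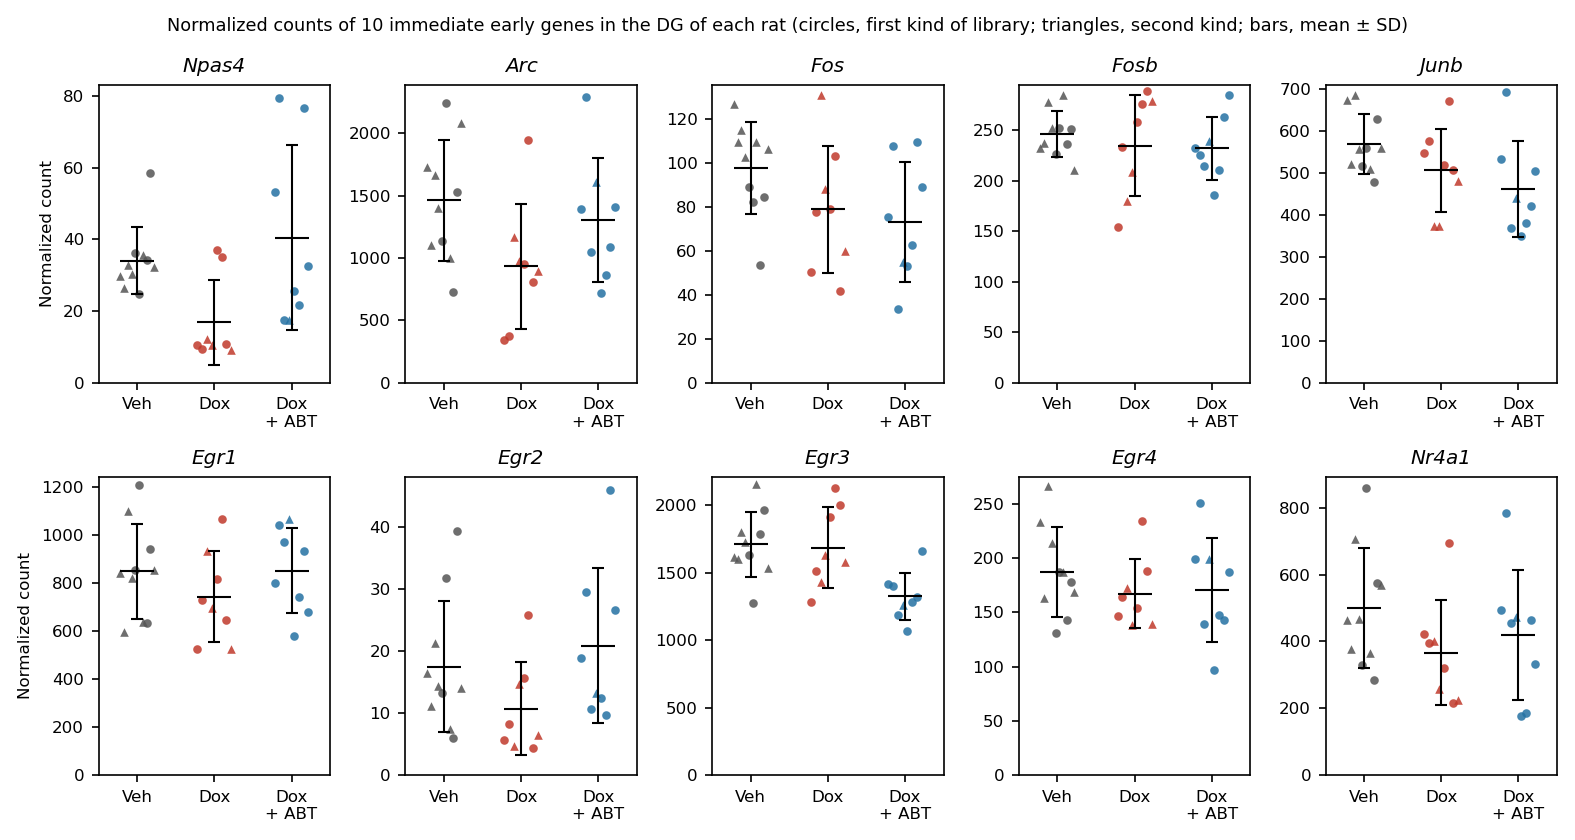
Normalized counts (y axes, starting at 0) of the 10 genes in each rat by group (x axes), with circles for the first kind of library, triangles for the second, and bars for the mean ± SD of 10 Veh, 8 Dox and 8 Dox + ABT rats. In the Npas4 panel 6 Dox rats sit between 9.10 and 12.3 and the other 2 at 35.0 and 37.1, and in the Egr3 panel all 8 Dox + ABT rats sit below the Veh median of 1680.

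FOS and FOSB pair with JUN proteins to form the AP-1 factor, and JUNB is a JUN partner that often restrains it. Fos ran from 53.6 through 104.4 to 126.6 in Veh, from 41.8 through 78.3 to 130.7 in Dox and from 33.6 through 69.1 to 109.2 in Dox + ABT. The ranges overlapped in every comparison, and the differences from Veh were -0.36 in Dox (p = 0.112) and -0.47 in Dox + ABT (p = 0.0395), neither past the threshold. In the first kind of library alone these were -0.18 (p = 0.573) and -0.10 (p = 0.74), and within the second Dox was at -0.33 (p = 0.145). Fosb, part of whose transcript is spliced to the stable short form deltaFosB, was nearly level, with medians of 244.2, 245.8 and 229.0 in Veh, Dox and Dox + ABT and no difference with p under 0.1. Within the first and second kinds of library it was at -0.03 and -0.18 in Dox relative to Veh. Its 2 transcript rows did not move together: relative to Veh the smaller one was at -0.49 in Dox (p = 0.0292) and the larger one at 0.19 (p = 0.455). Reads shared by the isoforms of a gene can be split between such rows in more than 1 way, so the sum is the firmer value.

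Junb ran from 477.8 through 558.8 to 686.2 in Veh and from 350.8 through 431.5 to 694.3 in Dox + ABT, where 5 of the 8 rats lay below every Veh rat while rat 2 lay above them all. The difference of -0.32 ± 0.12 (SE) fell short of the threshold (p = 0.013), and passed it once the kind of library entered the fit (-0.39, p = 0.00584). Within the first kind, which holds 7 of the 8 Dox + ABT rats, it was -0.26 (p = 0.101). It also passed without Dox + ABT rat 1, Dox + ABT rat 2 or Veh rat 10 (p from 0.00115 to 0.00913). In Dox, Junb ran from 374.2 through 514.2 to 671.7, and the difference from Veh was -0.18 (p = 0.144). Within the second kind of library it was -0.51 (p = 0.00202), and within the first kind 0.05 (p = 0.768). The 2 lowest Dox rats, 5 and 7, both belonged to the second kind, and were those with high globin RNA. Without them the difference of Dox from Veh was -0.05 (p = 0.696).

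The EGR factors bind the same GC-rich motif, and the NAB proteins restrain most of them. Egr3, which is also needed for synaptic plasticity, set Dox + ABT apart from both other groups. It ran from 1275 through a median of 1680 to 2155 in Veh, from 1282 through 1604 to 2128 in Dox and from 1068 through 1302 to 1656 in Dox + ABT. All 8 Dox + ABT rats lay below the Veh median, 3 of them below every Veh rat.

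Mean Egr3 was 1323 ± 175 (SD, n = 8) in Dox + ABT, 1708 ± 242 (n = 10) in Veh and 1684 ± 298 (n = 8) in Dox. Relative to Veh it was lower in Dox + ABT by a log2 difference of -0.37 ± 0.10 (SE, limma p = 0.0012, adjusted p = 0.109; exact permutation p = 0.00176), and was the only one of the 10 genes past the threshold in that comparison. Of all genes tested, 7.84% passed it and 3.95% passed it with a lower level, so 1 call in 10 genes was near the background of this fit. With the kind of library as covariate 1.37% of all genes and 2 of the 10, Egr3 (-0.39, p = 0.00145) and Junb, passed, and within the first kind alone 1.1% of all genes and none of the 10. Egr3 in Dox exceeded that in Dox + ABT by 0.34 ± 0.11 (SE, limma p = 0.0037, adjusted p = 0.187), and in Dox it did not differ from Veh beyond the spread (-0.03, 95% interval -0.24 to 0.18). The difference from Dox missed the threshold with quantile normalization (0.29, p = 0.0116), with ranks (p = 0.0143) and without Dox + ABT rat 5, Dox rat 10 or Dox rat 13 (0.29 to 0.30, p from 0.0105 to 0.0116). Within the first kind of library it was 0.39 (p = 0.00748) and the only one of the 10 to pass, where 8.21% of all genes did, and that of Dox + ABT from Veh was -0.32 (p = 0.0379).

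Npas4 and Egr3 were the 2 of 10 genes past the threshold between Dox and Dox + ABT, and they went opposite ways, Npas4 lower and Egr3 higher in Dox. Of all genes tested, 4.03% passed this threshold, 1.71% lower and 2.32% higher in Dox. The 3 comparisons share their groups, so the Npas4 differences from Veh and from Dox + ABT rest on the same 8 Dox rats, and both Egr3 differences on the same 8 Dox + ABT rats.

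Egr1, the most widely used activity marker of the family and a gene of late-phase plasticity, had a median of 848.1 in Veh, and of 715.5 and 868.8 in Dox and Dox + ABT. Its differences were small against its spread (-0.20 for Dox against Veh, p = 0.208, and 0.01 for Dox + ABT against Veh, p = 0.934). Within the first kind of library they were -0.27 (p = 0.204) and -0.14 (p = 0.484), and within the second Dox was at -0.18 (p = 0.4). Egr4 had medians of 182.6, 159.3 and 167.3 in the same order, with no difference under p = 0.3. Relative to Veh, Dox was at 0.15 (p = 0.504) within the first kind and at -0.44 (p = 0.026) within the second. Egr2 was rare, at an estimated 4 to 45 reads a library, and ran from 5.95 through 14.2 to 39.4 in Veh, from 4.29 through 7.29 to 25.7 in Dox and from 9.64 through 16.1 to 45.9 in Dox + ABT. In Dox, 5 of 8 rats lay below every Dox + ABT rat, with a difference of -0.95 ± 0.38 (SE, limma p = 0.0196; without Dox rat 10 -1.16, p = 0.00481), and the difference from Veh was -0.70 ± 0.37 (p = 0.0654). Within the first kind these were -0.90 (p = 0.084) and -0.82 (p = 0.161), and within the second the difference from Veh was -0.74 (p = 0.103).

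Nr4a1, an orphan nuclear receptor induced with the AP-1 genes, ran from 284.3 through 465.4 to 858.6 in Veh, from 214.5 through 357.9 to 695.3 in Dox and from 177.1 through 458.5 to 782.7 in Dox + ABT. The groups overlapped, with -0.47 for Dox against Veh (p = 0.0851). Within the second kind of library that difference was -0.74 (p = 0.00557) and within the first -0.28 (p = 0.491). For Dox against Veh, 3 of the 10 genes, Npas4, Junb and Nr4a1, passed the threshold within the second kind, where 3.57% of all genes did, and none passed within the first kind, where 4.76% did. The smallest p in the first kind was that of Npas4.

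**Figure D2:**
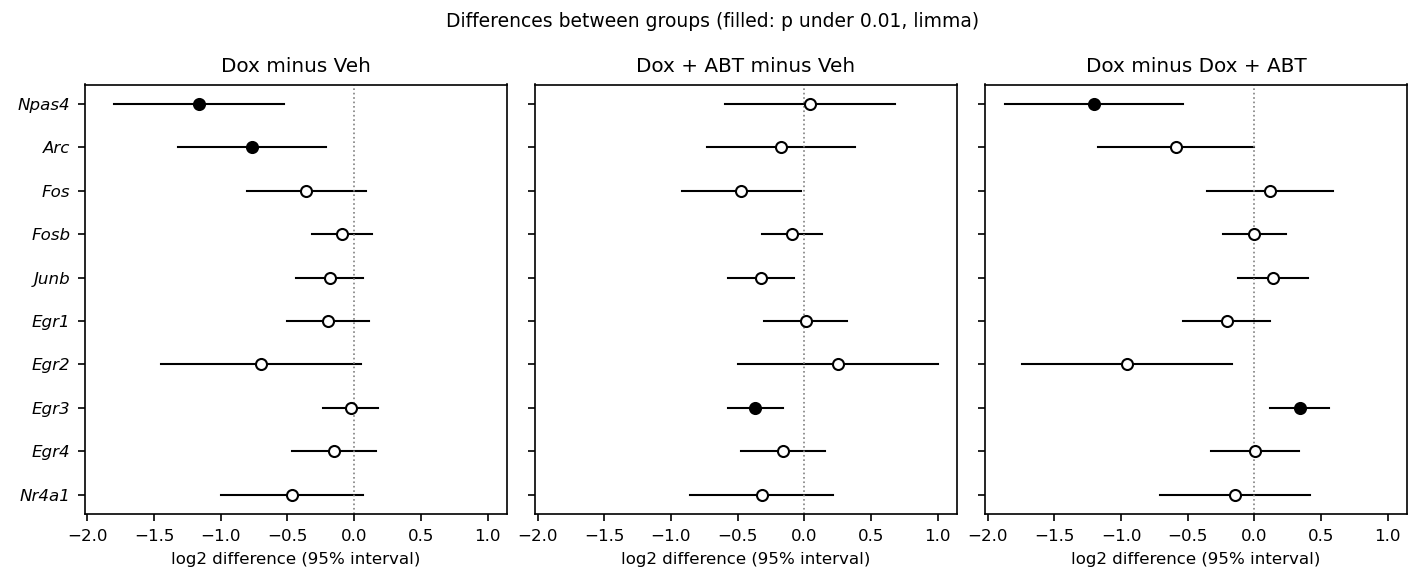
Log2 differences (x axes, points) with 95% intervals (lines) of the 10 genes (y axis) for Dox minus Veh, Dox + ABT minus Veh and Dox minus Dox + ABT, filled where limma gave p under 0.01. Npas4 and Arc lie below 0 for Dox minus Veh, Egr3 for Dox + ABT minus Veh, and Npas4 and Egr3 lie on opposite sides of 0 for Dox minus Dox + ABT.

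The 10 genes differed in how much they varied between rats of a group. The SD of the log2 level within groups was 0.80 for Egr2, 0.69 for Npas4, 0.63 for Arc, 0.60 for Nr4a1 and 0.48 for Fos. It was 0.22 for both Egr3 and Fosb and 0.27 for Junb, below the median of 0.305 over all genes tested. The rare transcripts Egr2 and Npas4 carry more counting error than the rest, whereas Arc and Nr4a1 stood for an estimated 318 and 191 reads or more in every library. The 2 genes with the smallest spread include Egr3, whose difference of 0.37 in size passed the threshold.

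Across the 26 rats, with the group means removed, 44 of the 45 pairs of genes were positively correlated, with a median Pearson r of 0.408 and a range from -0.001 to 0.761. By permutation of rats within groups, adjusted over the 45 pairs, 17 pairs passed an adjusted p of 0.05 by Pearson's r and 18 by Spearman's rho. The levels come from 1 library per rat, so pairs share depth and tissue composition as well as rats. Pairs of other genes were not counted in this way, so these counts have no background beside them.

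The strongest pair was Egr1 with Nr4a1 (r = 0.761, adjusted permutation p = 0.00045; rho = 0.709, adjusted p = 0.0027), which held without the 2 rats farthest from the Egr1 median (r = 0.685). Junb with Egr4 came next (r = 0.754, rho = 0.727, r = 0.649 without 2 rats), then Fosb with Egr3 (r = 0.733, rho = 0.658, r = 0.659), and Egr1 with Arc (r = 0.696, rho = 0.721, r = 0.611). Npas4 passed the adjusted threshold with Egr2 (r = 0.649, rho = 0.506, r = 0.559) and with Egr3 (r = 0.539, rho = 0.644, r = 0.42). Each of the 17 pairs remained positive without its 2 farthest rats, at 0.389 or above.

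The genes thus did not form 1 block of equal strength. Arc, Egr1, Egr4 and Nr4a1 were each correlated with the other 3 past the adjusted threshold, with r from 0.549 (Egr1 with Egr4) to 0.761. Fosb and Egr3, the pair with the smallest spread, were near 0 with Nr4a1 (0.07 and -0.001). Pairs within the first kind of library had a median r of 0.531 and 18 passed, with the 17 pairs at 0.531 or above. Within the second kind, where 9 of the 10 libraries carry information because Dox + ABT has only 1, the median was 0.26 and 1 pair passed, Egr1 with Nr4a1 (r = 0.957), while Npas4 with Egr2 was at -0.228 and the lowest pair, Fos with Fosb, at -0.73. Of the 45 pairs 29 were positive within both kinds.

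**Figure D3:**
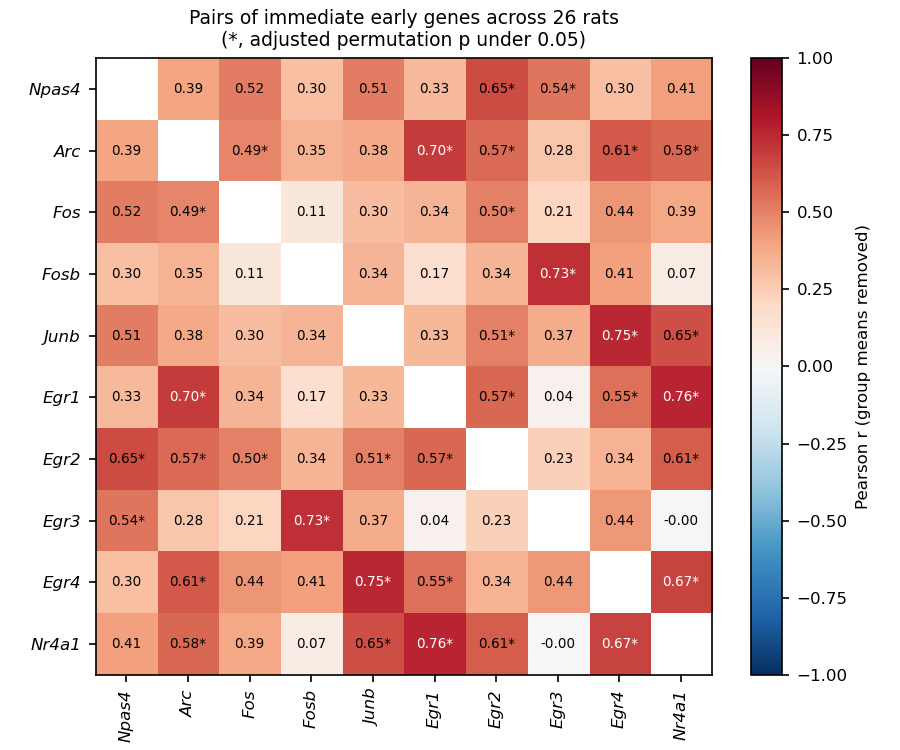
Pearson correlations between the log2 levels of the 10 genes (both axes) across 26 rats with group means removed, with an asterisk where the permutation p adjusted over 45 pairs was under 0.05. The cells of Arc, Egr1, Egr4 and Nr4a1 with each other, from 0.549 to 0.761, all carry an asterisk, and those of Fosb and Egr3 with Nr4a1 are near 0.

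Dox rat 10 decided part of this count: without it 9 pairs passed. That rat had all 10 genes above the median of the 26 rats and the highest level of any Dox rat in Junb, Egr1, Egr2, Egr3, Egr4, Arc and Nr4a1. Its mean z-score over the 10 genes, 1.136, was the highest of all rats, while the Dox median was -0.49 and Dox rat 1 was lowest of its group at -1.224. In Veh the mean z-score ran from -0.493 (rat 10) through 0.38 to 1.091 (rat 3), and in Dox + ABT from -1.343 (rat 5) through 0.117 to 1.046 (rat 2). Dox + ABT rats 5 and 6 had none of the 10 genes above the overall median, so rats at both ends were found in Dox + ABT as in Dox.

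**Figure D4:**
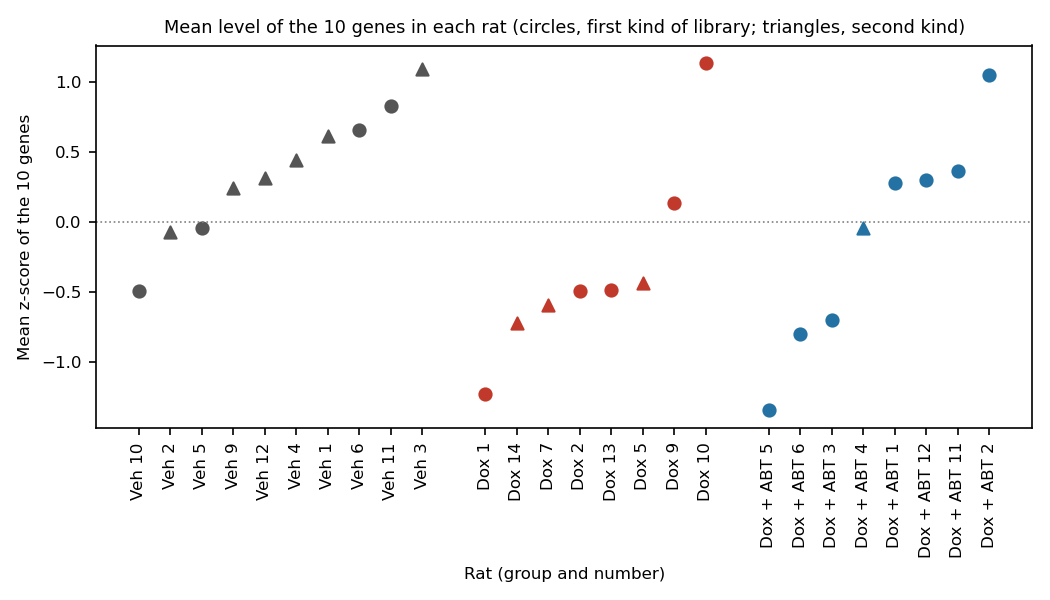
Mean z-score of the log2 levels of the 10 genes (y axis) in each rat (x axis, sorted within its group), with circles for the first kind of library and triangles for the second. In Dox, 6 of 8 rats lie between -1.224 and -0.438 and rats 9 and 10 at 0.136 and 1.136, while Veh rats lie from -0.493 to 1.091.

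Egr4 followed the mean of the other 9 genes most closely (r = 0.733, n = 26), then Arc (0.699), Egr2 (0.696), Junb (0.666), Nr4a1 (0.662), Npas4 (0.63), Egr1 (0.6), Fos (0.52), Egr3 (0.441) and Fosb (0.438). Of the 15585 other genes, 90% had a correlation with the mean of the 10 genes between -0.431 and 0.429, and 8 genes reached 0.7. These were St8sia5 (0.825), Gpr3 (0.789), Sh3bp4 (0.739), Scrt1 (0.737), Tril (0.737), Crhbp (0.736), Abcb9 (0.73) and Gpsm3 (0.713). Gpr3, a receptor that signals constitutively through cyclic AMP, and St8sia5, a ganglioside sialyltransferase, had r of 0.87 and 0.865 within the first kind of library and 0.362 and 0.618 within the second. The likeness differed between the kinds for the others too: all 8 lay at 0.772 or above within the first, while within the second Crhbp (0.73), Sh3bp4 (0.618) and Abcb9 (0.403) were positive and Tril (0.04), Gpsm3 (0.031) and Scrt1 (-0.122) near or below 0. Crhbp, which binds the stress peptide CRH, was lower in Dox than in Dox + ABT (-0.67, p = 0.00171), and Tril, a Toll-like receptor accessory protein, was lower in Dox than in Veh (-0.32, p = 0.00815). The other 6 passed the threshold in no comparison.

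Of 28 other rapid response genes tested, 1 passed the threshold as higher in Dox than in Veh and none as lower, against the 2.87% of all genes that passed in either direction. Their mean log2 levels were higher for 16 and lower for 12, with a median difference of 0.115. It was 0.006 without Dox rats 1 and 2 and 0.273 without Dox rats 5 and 7. Within the first kind of library it was 0.194 and within the second -0.087. The gene that rose was Maff, a small MAF factor (13.9 ± 7.48 in Veh and 38.5 ± 26.5 in Dox, log2 difference 1.22, p = 0.00937), and without Dox rats 1 and 2 no gene of the list passed. Without Dox rats 5 and 7 Maff missed the threshold too (0.95, p = 0.0571). Nr4a2, the closest relative of Nr4a1, was at -0.44 (p = 0.0262) relative to Veh and passed the threshold as lower in Dox than in Dox + ABT (-0.64, p = 0.0029), where Maff (1.96), Klf4 (0.96) and Btg2 (0.45), a growth arrest gene, were higher. Without Dox rats 1 and 2 only Maff of these 4 passed between Dox and Dox + ABT (1.54, p = 0.00315), and without Dox rats 5 and 7 Klf4 missed it (0.79, p = 0.0133). Ccn1, a matricellular gene, was at 1.08 relative to Veh (p = 0.0274) and passed without Dox rats 5 and 7 (1.62, p = 0.00127) and within the first kind of library (1.54, p = 0.0026). There Btg2 (0.57, p = 0.00395) also passed as higher, and Homer1 (-0.70, p = 0.00217) and Tiparp (-0.50, p = 0.00959) as lower. In the second kind Maff (1.62, p = 0.00411) passed as higher and Dusp1 (-0.84, p = 0.000301) as lower.

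Among 25 later genes of activity, Penk, which encodes enkephalin (-0.57, p = 0.000706), and Kcnf1, a potassium channel subunit (-0.73, p = 0.00886), fell in Dox relative to Veh, and Cdkn1a rose (1.20, p = 0.0027). Of all genes tested, 2.87% passed in that comparison. Penk was also lower in Dox + ABT than in Veh (-0.42, p = 0.00894), a difference that was -0.12 (p = 0.329) within the first kind of library. Without Dox rats 1 and 2 none of the 25 passed for Dox against Veh, and Penk was at -0.39 (p = 0.0111), Kcnf1 at -0.60 (p = 0.0415) and Cdkn1a at 0.51 (p = 0.0378). Without Dox rats 5 and 7 Penk (-0.69, p = 0.00015) and Cdkn1a (1.42, p = 0.00133) passed. Within the first kind of library, where 4.76% of all genes passed, Penk (-0.53, p = 0.000565), Kcnf1 (-0.92, p = 0.00825) and Cdkn1a (1.52, p = 0.00901) passed. None of these 3 passed within the second kind. Of 33 genes of the upstream pathway, 1 passed for Dox against Veh, where 2.87% of all genes did. It was the NMDA receptor subunit gene Grin2a, which was higher (0.53, p = 0.00533). None of the 33 passed without Dox rats 1 and 2, where Grin2a was at 0.43 (p = 0.0331). The next in order of p were Camkk1 (0.29, p = 0.0384) and Camk2d (-0.44, p = 0.0724), kinases of the calcium pathway. Of 15 partner and repressor genes none passed for Dox against Veh, and the smallest p values were those of the deacetylase gene Hdac5 (-0.29, p = 0.0356), Nab1 (-0.21, p = 0.115) and Rxrb (0.12, p = 0.122). Rxra, a nuclear receptor partner, was lower in Dox + ABT than in Veh (-0.65, p = 2.13e-05) and higher in Dox than in Dox + ABT (0.53, p = 0.000475), and Arnt, a bHLH-PAS protein, was higher in Dox + ABT than in Veh (0.46, p = 0.00339). Within the first kind of library the differences of Dox + ABT from Veh were -0.38 (p = 0.0143) for Rxra and 0.04 (p = 0.763) for Arnt.

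Dox + ABT relative to Veh had Elk4 higher (0.30, p = 0.00646) and Mapk3 (-0.36, p = 0.00165) and Elk1 (-0.41, p = 0.00896) lower among the 33 upstream genes. Of all genes tested, 7.84% passed in that comparison, so 3 calls in 33 genes were near the background. ELK1 and ELK4 are the partners of SRF at the CArG box and MAPK3 is the kinase ERK1 that activates them. None of the 3 passed within the first kind of library, where they were at 0.06, -0.16 and -0.08 for Elk4, Mapk3 and Elk1. Between Dox and Dox + ABT, 3 upstream genes passed and all were higher in Dox, where 2.32% of all genes passed as higher. They were the SRF coactivator gene Mrtfa (0.33, p = 0.00225), Camk2a (0.36, p = 0.00693) and Camk2b (0.34, p = 0.00812). All 3 passed within the first kind, where 10 of the 33 passed as higher and 1 as lower, against 8.21% of all genes in either direction. Without Dox rats 1 and 2 their differences were 0.30 (p = 0.00966), 0.32 (p = 0.0231) and 0.25 (p = 0.0548), and Grin2b and Srf passed.

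For Dox against Veh, target genes of the glucocorticoid receptor, whose ligand rises with handling stress, had a median difference opposite in sign to the Npas4 difference. All 14 tested had a higher mean log2 level in Dox than in Veh and 4 passed the threshold, with a median difference of 0.365. The smallest p values were those of Sult1a1, a sulfotransferase (0.79, p = 0.000232), Cdkn1a (1.20, p = 0.0027) and Fkbp5, a chaperone of the receptor (0.39, p = 0.00286), and the fourth to pass was the kinase gene Sgk1 (0.66, p = 0.00686). Of all genes tested 1.02% passed as higher in that comparison. Between Dox and Dox + ABT 13 of the 14 had a higher mean log2 level in Dox and 8 passed, where 2.32% of all genes passed as higher. Without Dox rats 1 and 2 the numbers that passed were 1 and 3, against 0.372% and 1.82% of all genes, and the median difference from Veh was 0.047. It was 0.034 within the second kind of library, 0.55 within the first and 0.42 without Dox rats 5 and 7. Within the first kind 5 of the 14 passed as higher in Dox than in Veh, and 9 as higher than in Dox + ABT. Of all genes there, 4.76% and 8.21% passed in either direction. Relative to Veh, 10 of the 14 had a lower mean log2 level in Dox + ABT. Of these, 1 passed as lower, where 3.95% of all genes did. Npas4 without Dox rats 1 and 2 was at -1.0 relative to Veh and -1.04 relative to Dox + ABT (p = 0.00701). Whether stress hormone moved with the immediate early genes was not tested.

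Of 14 circadian clock genes, which bear on the hour of harvest, Dbp, an output gene of the clock, was lower in Dox than in Veh (1191 ± 137 against 1868 ± 440, -0.62, p = 4.11e-05) and was at 1196 ± 235 in Dox + ABT, and Arntl, the clock's BMAL1 gene, was higher in Dox (0.27, p = 0.00186). Of all genes tested, 2.87% passed for Dox against Veh. Arntl missed the threshold without Dox rats 1 and 2 (0.23, p = 0.0125), while Dbp passed it (-0.58, p = 0.000396). Without Dox rats 5 and 7 Arntl passed (0.26, p = 0.00696). It also passed within the first kind of library (0.37, p = 0.0038), where Per3 passed as lower (-0.35, p = 0.00784), but not within the second (0.19, p = 0.138). Dbp within the first kind of library was at -0.30 (p = 0.0133), and within the second at -0.75 (p = 4.84e-06). The third in order, Cry2, was at 0.18 (p = 0.0623) and passed without Dox rats 5 and 7 (0.27, p = 0.00491). Nr1d1, the clock's REV-ERB alpha gene, was lower in Dox + ABT than in Veh (-0.44, p = 0.00122; -0.18, p = 0.189 within the first kind of library), and in Dox it passed without Dox rats 1 and 2 (-0.36, p = 0.00354). Within the second kind, where Npas4, Junb and Nr4a1 passed, Nr1d1 (-0.49, p = 0.00045), Ciart (-0.85, p = 0.000487) and Cry1 (-0.50, p = 0.00335) were lower in Dox beside Dbp. There 3.57% of all genes passed in either direction. Between Dox and Dox + ABT none of the 14 passed in all rats. Within the first kind, where 8.21% of all genes passed, Ciart (0.75, p = 0.00876) and Bhlhe41 (0.46, p = 0.00998) passed as higher and Per3 (-0.32, p = 0.00687) as lower in Dox. The hour of harvest by group is not given in the sources used here, and its part in the results was not tested.

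Granule cell markers, among them Prox1, were present in every library. The 7 that were found summed to medians of 14880, 14561 and 13437 normalized counts in Veh, Dox and Dox + ABT with overlapping ranges, and none passed for Dox against Veh, where the smallest p values were those of Pdzd2 (0.36, p = 0.0823), C1ql2 (-0.17, p = 0.18) and Dsp (-0.09, p = 0.446). Without Dox rats 5 and 7 Pdzd2 passed (0.58, p = 0.00787), and C1ql2 was lower in Dox + ABT than in Veh (-0.46, p = 0.000697) but at -0.18 (p = 0.129) within the first kind of library. CA pyramidal cell markers, which a DG dissection should hold few of, summed to between 6111 and 22474 in single rats. None of the 5 tested passed for Dox against Veh, with Bok (0.35, p = 0.158), Lmo3 (-0.13, p = 0.238) and Wfs1 (-0.40, p = 0.433) first in order of p. None of 6 interneuron markers passed there either, with Pvalb (-0.40, p = 0.0996), Gad1 (0.11, p = 0.229) and Vip (0.26, p = 0.257) first. In Dox + ABT, 4 of the 6 had a higher mean log2 level than in Veh and 2 passed, Gad1 (0.25, p = 0.00898) and Gad2 (0.27, p = 0.00795), which were at 0.06 and 0.03 within the first kind. Of all genes tested, 3.89% passed as higher in that comparison.

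Of 6 microglial markers, all had a lower mean log2 level in Dox than in Veh and 4 passed, Aif1 (-0.61, p = 0.00237), Cx3cr1 (-0.64, p = 0.00274), Tmem119 (-0.50, p = 0.00675) and Itgam (-0.51, p = 0.0077). Of all genes tested, 1.85% passed as lower in that comparison, the share to set beside these and the astrocyte and endothelial calls below. None of the 6 microglial markers passed without Dox rats 1 and 2, while Aif1, Cx3cr1 and Tmem119 passed without Dox rats 5 and 7. Within the first kind of library, where 4.76% of all genes passed, Aif1 alone did. There Cx3cr1 was at -0.68 (p = 0.023), Tmem119 at -0.51 (p = 0.0435) and Itgam at -0.72 (p = 0.0129). Within the second kind, where 3.57% of all genes passed, Csf1r alone did (-0.45, p = 0.00946). Of 6 astrocyte markers 3 passed as lower, Gfap (-0.75, p = 4.07e-05), Aqp4 (-0.43, p = 0.00132) and Aldh1l1 (-0.43, p = 0.0034). The other 3 lay near 0, at 0.03 (Slc1a3), 0.06 (Gja1) and 0.07 (S100b). The same 3 passed without Dox rats 1 and 2, and Gfap passed within both kinds of library. Of 5 endothelial markers 1 passed as lower, Slco1a4 (-0.96, p = 0.0011), which missed the threshold without Dox rats 1 and 2 (-0.47, p = 0.0103). Of the other 4, Flt1 (0.52, p = 0.0606) and Cldn5 (0.21) lay above 0 and Cdh5 (-0.29, p = 0.0914) and Tek (-0.40) below. Between Dox and Dox + ABT, Aqp4 (-0.45, p = 0.00135) and Slco1a4 (-0.91, p = 0.00289) passed as lower in Dox, where 1.71% of all genes did. Without Dox rats 1 and 2 Slco1a4 missed it (-0.41, p = 0.0266). For Dox + ABT against Veh, Csf1r (-0.48, p = 0.00199) and Aldh1l1 (-0.47, p = 0.00175) passed as lower, where 3.95% of all genes did. Within the first kind neither passed (-0.20, p = 0.101, and -0.32, p = 0.0251). The part of these cell types in the levels of the immediate early genes was not tested.

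The 4 red blood cell markers summed to between 3608 and 128552 in Dox, against 2327 to 25997 in Veh and 3172 to 11576 in Dox + ABT, and none of them passed, with Alas2 (1.21, p = 0.0372), Hba-a2 (1.04, p = 0.116) and Hba-a1 (0.90, p = 0.151) first in order of p. Within the second kind of library, which holds Dox rats 5 and 7, 3 of the 4 passed as higher in Dox than in Veh. There 3.57% of all genes passed in either direction. Choroid plexus markers summed to at most 360 in any rat, and 4 of the 7 were too low to be tested. The other 3, Slc4a5 (-0.56, p = 0.126), Aqp1 (0.68, p = 0.296) and Ttr (-0.54, p = 0.367), did not pass for Dox against Veh. Between Dox and Dox + ABT, where 1.71% of all genes passed as lower in Dox, Slc4a5 passed as lower (-1.18, p = 0.0038). In whole tissue, fewer cells of a type and less RNA per cell cannot be told apart, and nor can fewer active granule cells and less transcript in each.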

How the data were processed

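RNA was poly(A) selected and sequenced on an Ion Proton, 1 library per rat and 26 in all. Per the study's methods and the submitters' processing notes, the authors aligned the reads to the rat genome build rn6 with STAR 2.5.3a in Partek Flow, normalized the counts by Median Ratio, left out genes with a mean count under 5 and tested with DESeq2. The deposited values are that normalized signal, 24012 transcript rows of estimated counts divided by a library factor, and are not whole: between 72.5% and 77.2% of the low values of genes with a single row were whole reads (tolerance 0.01), so no count test was run here. The library factor read from these low values gave the estimated reads behind a value.

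Rows were summed by gene identifier to 17910 genes. Genes averaging 5 or more, 15595 of them, were tested on log2(value + 1) with limma 3.58.1 (variance trend, R 4.3.3) in 1 fit of the 3 groups, with the study's threshold of p under 0.01 and Benjamini-Hochberg adjusted values over all genes beside it. Correlations used deviations from group means with 100000 permutations of rats within groups (scipy 1.17.1, numpy 2.4.6); the smallest p these can give is 1e-05. Adjusted p values of the pairs cover the 45 pairs. Fit and correlations were tested on simulated data. The kinds of library were defined from genes with a mean of at least 20, by a split at the widest gap of the scores on the first principal component. RefSeq promoter windows are of GRCr8, not rn6, and give sequence only. Normalized counts of different genes were not compared, since the values are not per length. Npas4 and Egr2 are called rare by their estimated reads, which are not per length either.

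The genes, the other gene lists and the tests were chosen with earlier results of these data known. Named were the 10 genes, of each other list the 3 genes with the smallest p for Dox against Veh with any that passed, and the 8 genes most like the mean of the 10. Nr4a2, Maff, Klf4, Btg2, Elk1, Elk4, Mapk3, Mrtfa, Camk2a, Camk2b, Rxra, Arnt, C1ql2, Gad1, Gad2, Nr1d1, Ciart, Cry1, Bhlhe41, Per3, Homer1, Tiparp, Dusp1, Grin2b, Srf, Csf1r, Aqp4, Aldh1l1, Slco1a4 and Slc4a5 in the other comparisons or settings, Prox1 and the remaining astrocyte and endothelial markers, and Cdkn1a, Mt1 and Hba-a2 in single rats, were named after their values were seen. Leaving out Dox rats 1 and 2 or 5 and 7, and the other lists within each kind of library, were chosen after seeing the data; pseudocounts, filters, scalings, covariates, a replicate block and leaving out each rat were the other alternatives. Results for a further glial marker list are not reported here. Rats were separate animals, and the replicate numbers in the labels did not pair them.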

Additional observations from a re-analysis of the deposited data

Results flagged for a closer look

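Within the groups, 2 of 60 extremes (the highest and the lowest rat of 30 combinations of gene and group) lay farther from the next rat than Dixon's 95% limit allows on the log2 scale, where chance flags about 1 in 20 groups. Npas4 in Veh rat 11 was 58.41 normalized counts, with the next Veh rat at 36.27. Fos in Veh rat 10 was 53.59, with the next Veh rat at 82.15. Both libraries were of the first kind and among the least deeply sequenced, at an estimated 11576000 and 10166000 reads, and whether depth moved these values was not tested. The 2 high Dox rats for Npas4, 9 and 10, were not flagged, since they lay close to each other.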

How the results depend on the processing

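Npas4 kept a negative difference from Veh under every alternative run, from -1.47 to -0.71, and from Dox + ABT from -1.39 to -0.78. It missed the threshold relative to Veh with array weights (-0.71, p = 0.0412), normal scores of ranks (p = 0.0154) and within the first kind of library (p = 0.0399), and relative to Dox + ABT with the same 3 and with the exact permutation test; the cause was not tested. Its adjusted p relative to Veh ranged from 0.0866 to 0.761. Arc was past the threshold in 20 of 46 alternatives.

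The count for Dox against Veh was 2. It was 1 with robust moderation, no variance trend, the 2 compared groups alone, either covariate for the kind of library, the exact test, the replicate block and without Dox rats 1 and 2. It was 0 with array weights, with ranks and within the first kind. The count for Dox + ABT against Veh was 1; it was 3 with array weights, 2 with either covariate and without Dox rats 5 and 7, and 0 within the first kind. The count for Dox against Dox + ABT was 2; it was 1 with array weights, quantile normalization, the exact test, the replicate block and within the first kind, and 0 with ranks. Leaving out 1 rat gave 1 to 2, 1 to 2 and 1 to 3. The count of correlated pairs, 17, was 6, 0 and 7 in Veh, Dox and Dox + ABT rats alone and 1 within the second kind, where fewer rats were used, and 9 to 23 without 1 rat; 9 came without Dox rat 10.

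Rats with the same number did not deviate together (r from -0.171 to 0.298 over the 3 pairs of groups), so the numbers name rats only. Under the replicate block Egr3 missed the threshold for Dox against Dox + ABT (0.19, p = 0.17), and the signs of Egr1 (0.10 for Dox against Veh, 0.13 for Dox against Dox + ABT, -0.026 for Dox + ABT against Veh) and Nr4a1 (0.071 for Dox against Veh, 0.47 for Dox against Dox + ABT) turned.

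Other signs that turned were of differences with p above 0.08, 15 of the 30 in all and none past the threshold. For Dox against Veh these were Egr3 (0.11 with array weights, 0.080 within the first kind, 0.058 without Dox rats 1 and 2, 0.015 without 5 and 7; -0.078 to 0.027 without 1 rat), Egr4 (0.15 within the first kind), Junb (0.049 within the first kind) and Fosb (0.021 with array weights, 0.19 for its larger row). For Dox + ABT against Veh they were Egr1 (-0.0078 with array weights, -0.0031 with kind as covariate, -0.094 with ranks, -0.14 within the first kind; -0.040 to 0.088 without 1 rat), Egr4 (0.016 within the first kind), Fosb (0.17 for its larger row) and Npas4 (-0.011 with quantile normalization, -0.21 and -0.18 with kind and component as covariates; -0.13 to 0.17 without 1 rat). For Dox against Dox + ABT they were Egr4 (-0.030 with upper quartile rescaling, -0.0087 and -0.030 with component and kind as covariates, -0.088 with ranks; -0.10 to 0.091 without 1 rat), Fos (-0.081 within the first kind, -0.061 without Dox rats 5 and 7; -0.031 to 0.23 without 1 rat), Nr4a1 (0.055 within the first kind, 0.038 with array weights; -0.30 to 0.0026 without 1 rat) and Fosb (0.16 with array weights, 0.0055 with quantile normalization, 0.0010 and 0.0053 with kind and component as covariates, 0.14 with ranks, 0.048 within the first kind, 0.019 for its larger row, 0.089 and 0.080 without either pair of Dox rats; -0.049 to 0.079 without 1 rat).

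Over all genes, 448, 1222 and 629 passed in the 3 comparisons. Array weights gave 3150, 5297 and 1612, the first kind alone 742, 172 and 1281, and kind as covariate 214 and the component 414 for Dox + ABT against Veh, where the component gave 952 for Dox against Dox + ABT. The replicate block gave 765 and 403 for the comparisons with Dox. Without Dox rats 1 and 2, 181 passed for Dox against Veh, and without 5 and 7, 1131. Upper quartile rescaling moved the higher genes from 606 to 793 of 1260 for Dox + ABT against Veh and from 362 to 266 of 642 for Dox against Dox + ABT.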
